A study of Homo sapiens with 9 samples.

Results

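The genes described are 8 chemokine ligands and 1 chemokine receptor: CXCL8 (listed as IL8), CXCL1, CXCL2, CXCL3, CXCL5, CXCL16, CCL2, CCL20 and ACKR3 (listed as CXCR7). They were chosen by symbol, and each matched 1 row, so that 9 of the 30672 genes measured are covered. Levels were read on 9 Illumina expression arrays of HCC4006, an established human lung adenocarcinoma cell line with a mutated EGFR. Of the 3 groups with 3 arrays each, the inhibitor group had gefitinib combined with SB431542, which blocks the kinase of the type I TGFβ receptors, over 6 months. The resistant group had 6 months of increasing gefitinib, an EGFR kinase blocker, and the parental group was unselected HCC4006. All groups derive from this 1 line. The labels do not give the order of resistance and inhibitor in the first group. There was no group with SB431542 alone and none cultured for the same time without gefitinib, so drug, selection and culture time cannot be told apart. Separate cultures are not stated for the replicates, so p-values measure the spread between arrays, which may be technical. Each array held RNA of a whole culture, so fewer cells expressing a gene and less RNA of it per cell cannot be told apart.

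Chemokines are small secreted proteins that guide the migration of leukocytes and other cells through G protein-coupled receptors. CXCL8, CXCL1, CXCL2, CXCL3 and CXCL5 carry an ELR motif and attract neutrophils through CXCR2, CXCL8 also through CXCR1. CCL2 draws monocytes through CCR2, CCL20 acts on CCR6, and CXCL16, a membrane-bound ligand that proteases can release, acts on CXCR6. ACKR3 is an atypical receptor that binds CXCL12 and CXCL11, recruits β-arrestin rather than signalling through G proteins, and takes up its ligands. In lung tumours, chemokines from cancer cells are studied for the leukocytes they recruit.

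Intensities are given on the deposited linear scale, with means ± SD (n = 3 per group), and differences are on the log2 scale ± SE. A gene was called changed at an adjusted p under 0.05 (limma, Benjamini-Hochberg over all genes). Background was not subtracted, and 95% of 375 olfactory receptor rows had a mean of 90.3 or less, which served as the background level. Fold changes of genes near that level in 1 group are therefore understated. Array medians were 91.1 to 91.3. Correlations within groups were 0.996 to 0.998, apart from inhibitor replicate 2, which reached 0.990 and 0.991 with the other arrays of its group.

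The cells carried markers of their label. Of 10 epithelial and lung adenocarcinoma markers, 9 lay above background in at least 1 group, and SFTPB, a surfactant gene, did not. The adhesion genes EPCAM and CDH1 and the keratin genes KRT7, KRT8, KRT18 and KRT19 were far above background in all 3 groups. The lung marker NAPSA, encoding napsin A, averaged 94.2 in inhibitor, 98.8 in resistant and 1002 in parental cells, so it was near background in both treated groups. The summed intensity of the 10 was 23975 to 29289 in inhibitor arrays, 8795 to 8929 in resistant arrays and 19096 to 21792 in parental arrays.

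CXCL8, CXCL1, CXCL2, CXCL3 and CXCL5, all on chromosome 4, are shown first by the sequence just before their starts. These genes share the letters of a κB motif there, while only CXCL8 was measured well above background. From CXCL8 to CXCL2 this stretch of chromosome 4 holds 9 protein-coding genes, all of them chemokines, in the order CXCL8, CXCL6, PF4V1, CXCL1, PF4, PPBP, CXCL5, CXCL3 and CXCL2. RefSeq promoters of assembly GRCh38.p14 were matched for 6 of the 9 genes. For CXCL8, CXCL1, CXCL2, CXCL3 and CXCL5, the 150 bases before the start are printed 5′ to 3′ on the gene's own strand. That of CCL20 was searched but is not printed. Capitals mark GGAATTTCC, a letter form of the site bound by NF-κB, and TGACTCA, a form of the AP-1 site TGANTCA. Both were searched on both strands, and the marked matches do not overlap.
CXCL8, chr4:73740419-73740568, strand plus: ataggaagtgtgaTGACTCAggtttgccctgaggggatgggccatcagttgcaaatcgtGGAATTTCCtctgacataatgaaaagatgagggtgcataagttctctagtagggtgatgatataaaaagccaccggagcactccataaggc
CXCL1, chr4:73869243-73869392, strand plus: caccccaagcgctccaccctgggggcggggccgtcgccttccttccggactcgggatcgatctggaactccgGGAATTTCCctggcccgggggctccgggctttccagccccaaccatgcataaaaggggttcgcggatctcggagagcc
CXCL2, chr4:74099196-74099345, strand minus: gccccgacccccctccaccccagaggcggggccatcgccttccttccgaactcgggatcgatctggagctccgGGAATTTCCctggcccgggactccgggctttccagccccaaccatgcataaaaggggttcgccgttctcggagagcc
CXCL3, chr4:74038690-74038839, strand minus: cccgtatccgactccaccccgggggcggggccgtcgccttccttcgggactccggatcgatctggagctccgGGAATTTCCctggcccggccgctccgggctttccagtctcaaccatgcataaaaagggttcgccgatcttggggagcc
CXCL5, chr4:73998678-73998827, strand minus: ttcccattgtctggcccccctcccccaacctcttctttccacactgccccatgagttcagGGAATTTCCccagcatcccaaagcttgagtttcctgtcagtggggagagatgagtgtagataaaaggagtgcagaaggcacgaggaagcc

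The κB letters began 91 bases before the start of CXCL8, 78 before CXCL1, 77 before CXCL2, 78 before CXCL3 and 90 before CXCL5. CCL20, on chromosome 2, had neither set of letters in its window of 250 bases before to 50 after the start. The AP-1 letters, 137 bases before the start, were found in CXCL8 only among these 6. In the same window, 162 of 35116 promoters (0.461%) held the κB letters and 7.71% held the AP-1 letters. The κB search took only this exact form, so other forms of the site, in CCL20 or elsewhere, were not counted. The share therefore does not measure how common κB sites are. Of 26 other chemokine ligand promoters, CXCL6, CXCL10 and CXCL11 held the κB letters, and 6 held the AP-1 letters (CCL7, CCL24, CCL27, CXCL11, CXCL14 and CXCL17). A match of letters is a description of sequence and not of a bound site.

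The comparison of resistant with parental cells asks which chemokine genes differed after the long exposure to gefitinib. ACKR3 was 13.4-fold higher in resistant cells, CXCL8 5.89-fold lower, CXCL16 3.73-fold lower and CCL2 1.53-fold lower, and CCL20 fell slightly, close to background. Among all genes, 20.5% were called in this comparison, 10.2% higher and 10.2% lower; among the 9 genes, 1 was higher, 4 were lower and 4 did not pass. Their median difference was −0.13, against 0.0045 for all genes. With inhibitor and gefitinib together, compared with resistant cells, CXCL16 was 3.56-fold and CXCL8 1.33-fold higher, while ACKR3 was 11.4-fold lower, CCL2 2.00-fold lower and CXCL5 slightly lower. This made 2 higher, 3 lower and 4 not called, against a background of 17.5% called, 8.69% higher and 8.82% lower. Against parental cells, the inhibitor group had 0 genes higher, 4 lower (CXCL8, CCL2, CXCL2 and CCL20) and 5 not called, where 14.9% of all genes were called, 7.13% higher and 7.8% lower. At an unadjusted limma p under 0.05, 1 of the 9 was higher in that comparison. The median differences were −0.03 and −0.07, against −0.0008 and 0.0045 for all genes. All comparisons come from the same 9 arrays, and each group serves in 2 of them.

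**Figure D1:**
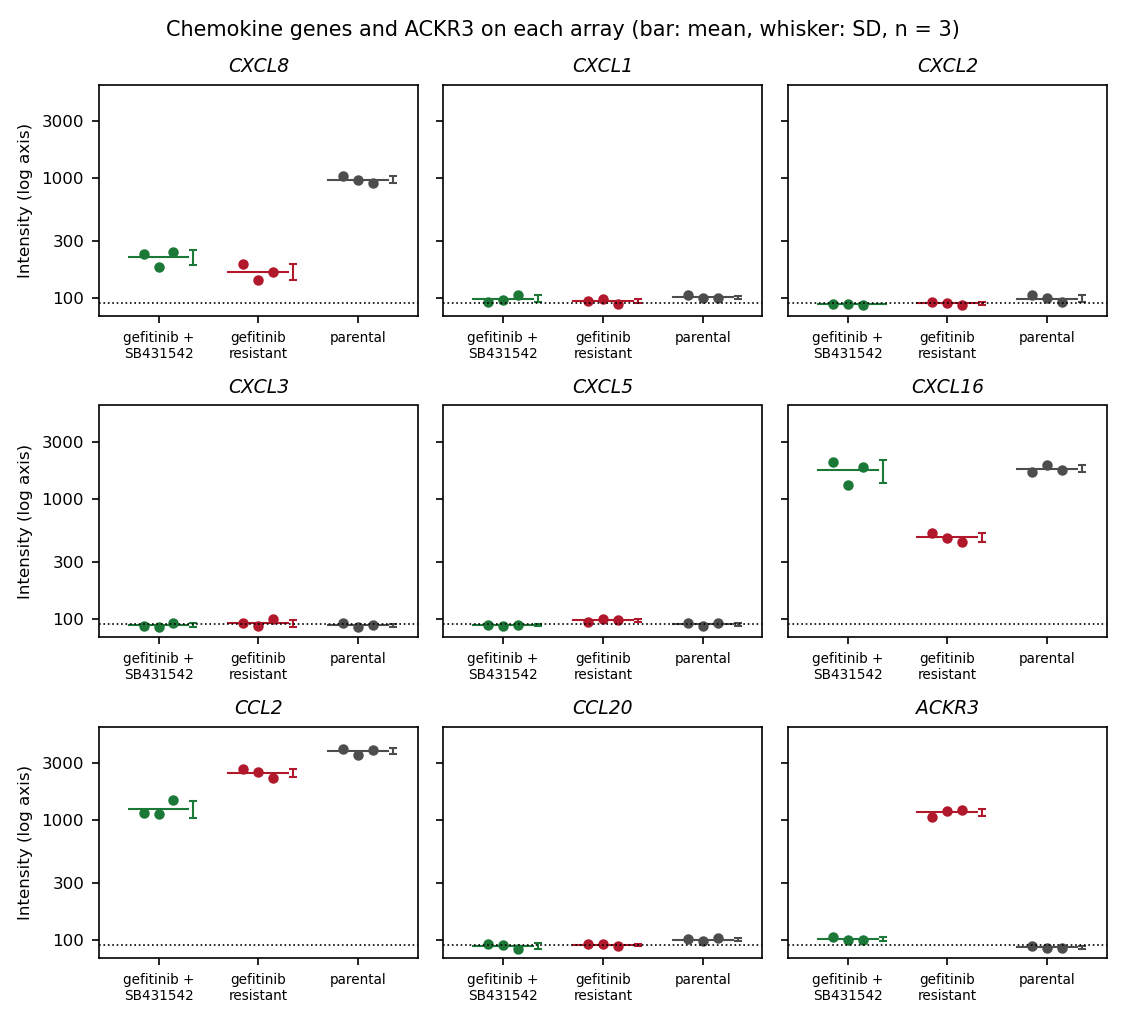
Intensity of each of the 9 genes (log axis) on each array, with the gefitinib plus SB431542 group at the left, the gefitinib resistant group in the middle and the parental group at the right. Points are arrays, bars are means, whiskers are SD (n = 3), and the dotted line is the background level of 90.3; CXCL8, CXCL16, CCL2 and ACKR3 lie clearly above it in at least 1 group, while the other 5 stay at 83.7 to 105.

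CXCL8, the neutrophil attractant interleukin-8, had 233, 182 and 243 in inhibitor arrays, 190, 140 and 164 in resistant arrays, and 1039, 953 and 905 in parental arrays. Every parental array was above every other array, while the inhibitor and resistant arrays overlapped. Resistant cells averaged 165 ± 24.8 and parental cells 966 ± 67.7, a difference of −2.56 ± 0.13 (5.89-fold lower, adjusted p = 1.18e-11). Inhibitor cells, at 219 ± 32.8, differed from resistant cells by 0.41 ± 0.13 (1.33-fold, adjusted p = 0.031). That call was lost without resistant replicate 2 (adjusted p = 0.204), without resistant replicate 3 (0.0895), and without inhibitor replicates 1 (0.115) or 3 (0.133). Against parental cells, inhibitor cells stayed lower, by −2.15 ± 0.13 (4.44-fold, adjusted p = 3.49e-10).

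The 4 other ELR ligand genes were at or near background on all arrays. CXCL1, which encodes the melanoma growth-stimulating activity, had 92.7, 96.5 and 105 in inhibitor arrays, 93.8, 97.1 and 89.5 in resistant arrays, and 105, 98.7 and 99.5 in parental arrays, and was not called in any comparison (adjusted p = 0.165 to 0.719). CXCL2 had 88.7, 89.5 and 87.8 in inhibitor arrays, 92.6, 90.8 and 87.0 in resistant arrays, and 105, 98.7 and 91.8 in parental arrays. CXCL1 and CXCL2, close paralogs, list identical values in parental replicates 1 and 2. Other genes list these values too, RELB 104.64 in parental replicate 1, and CSF2 and CXCL6 98.739 in parental replicate 2. The match therefore does not show that the 2 rows depend on each other. CXCL2 was called lower in inhibitor than in parental cells, by −0.15 (adjusted p = 0.0415), and leaving out any 1 of 5 arrays ended the call: parental replicate 1 (0.223) or 2 (0.111), inhibitor replicate 1 (0.0879) or 3 (0.106), or resistant replicate 2 (0.0534). CXCL3 had 87.0, 86.2 and 92.1 in inhibitor arrays, 92.0, 86.2 and 98.7 in resistant arrays, and 91.3, 85.8 and 88.2 in parental arrays. Its groups overlapped, and it was not called.

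CXCL5, an epithelial neutrophil attractant, had 88.1, 86.4 and 89.5 in inhibitor arrays, against 94.5, 99.4 and 97.8 in resistant arrays; parental arrays had 91.3, 86.3 and 91.8. The inhibitor and resistant arrays did not overlap, but all lay near the background level. The difference between inhibitor and resistant cells was −0.14 (adjusted p = 0.0207), lost without resistant replicates 2 (0.0803) or 3 (0.0606) and without inhibitor replicate 2 (0.0628). Of the 5 genes with the κB letters printed above, CXCL8 was the one measured well above background, and CXCL1, CXCL2, CXCL3 and CXCL5 lay at or near it in all groups.

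**Figure D2:**
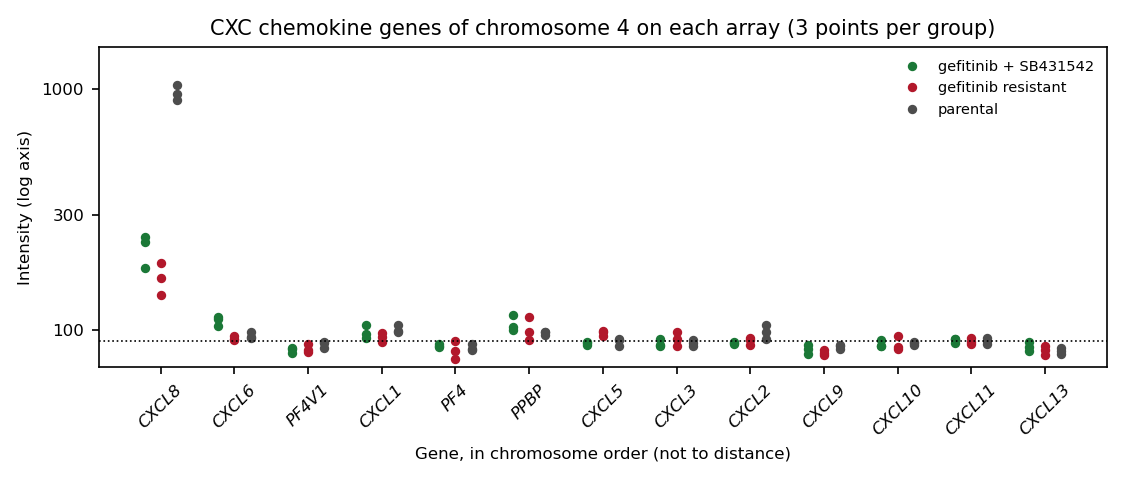
Intensity (log axis) of 13 CXC chemokine genes of chromosome 4 on each array, in chromosome order and not to distance, with inhibitor (green), resistant (red) and parental (grey) arrays. CXCL8 lies at 905 to 1039 in parental arrays, 182 to 243 in inhibitor arrays and 140 to 190 in resistant arrays, and the other genes stay near the dotted background level of 90.3.

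CXCL16, the membrane-bound ligand of CXCR6, was low in resistant cells alone among the 3 groups. Its intensities were 2029, 1300 and 1844 in inhibitor arrays, 522, 476 and 436 in resistant arrays, and 1687, 1919 and 1737 in parental arrays. All resistant arrays lay below all others, and inhibitor and parental arrays overlapped. Resistant cells were lower than parental cells by −1.90 ± 0.14 (3.73-fold, adjusted p = 4.47e-09), and inhibitor cells were higher than resistant cells by 1.83 ± 0.14 (3.56-fold, adjusted p = 1.29e-08). Inhibitor and parental cells differed by −0.07 (95% interval −0.37 to 0.23, adjusted p = 0.849). Inhibitor replicate 2, the array that stood apart, was the lowest of its group, and without it inhibitor cells differed from resistant cells by 2.02 and from parental cells by 0.12 (adjusted p = 0.567). The summed epithelial markers were also lowest in resistant arrays, though not each marker was. KRT8 averaged 2025 in inhibitor, 1170 in resistant and 721 in parental cells, and KRT18 followed the same order. NKX2-1 and NAPSA were lower than parental in both treated groups. Inhibitor against resistant cells was not called for NKX2-1 (adjusted p = 0.0994) or NAPSA (adjusted p = 0.713). The part of these markers in the CXCL16 result was not tested. The sheddase genes ADAM10 and ADAM17, whose proteases can release CXCL16, were not called in resistant against parental cells. ADAM10 averaged 480 ± 42.6 in inhibitor, 403 ± 62.9 in resistant and 387 ± 56.8 in parental cells. ADAM17 was lower in inhibitor than in parental cells (229 ± 33.7 against 304 ± 22.5, −0.41, adjusted p = 0.0116), but leaving out parental replicate 2 ended that call (0.0733).

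CCL2, the monocyte attractant MCP-1, was lowest in inhibitor cells, intermediate in resistant cells and highest in parental cells. It had 1139.5, 1115 and 1468 in inhibitor arrays, 2628, 2515 and 2252 in resistant arrays, and 3923, 3504 and 3854 in parental arrays. No 2 groups overlapped. The differences were −0.61 ± 0.11 for resistant against parental cells (1.53-fold lower, adjusted p = 0.000337), −0.9985 ± 0.11 for inhibitor against resistant cells (2.00-fold lower, adjusted p = 1.52e-06) and −1.61 ± 0.11 for inhibitor against parental cells (3.05-fold lower, adjusted p = 2.6e-09). Without inhibitor replicate 2, the inhibitor differences were −0.93 against resistant and −1.54 against parental cells.

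CCL20, an attractant of CCR6-bearing lymphocytes and dendritic cells, stayed near background with 92.0, 90.6 and 83.7 in inhibitor arrays, 91.9, 91.7 and 88.0 in resistant arrays, and 101, 97.0 and 103 in parental arrays. Its parental arrays were above all others. It was called lower than parental in resistant cells (−0.15, adjusted p = 0.028) and in inhibitor cells (−0.18, adjusted p = 0.0113). Leaving out parental replicate 3 ended both calls (0.115 for resistant and 0.0592 for inhibitor cells). The call in resistant cells also ended when parental replicate 1 (0.0789) or resistant replicate 3 (0.121) was left out, and the call in inhibitor cells when inhibitor replicate 3 was (0.0799).

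ACKR3 had 106, 98.7 and 98.6 in inhibitor arrays, 1057, 1190 and 1213 in resistant arrays, and 89.2, 84.8 and 84.6 in parental arrays. The resistant arrays lay far above both other groups, and inhibitor arrays were all slightly above parental arrays. The difference was 3.74 ± 0.08 for resistant against parental cells (adjusted p = 2.81e-16) and −3.51 ± 0.08 for inhibitor against resistant cells (adjusted p = 1.71e-15). Since ACKR3 lay at background in parental cells, the 13.4-fold change is understated. Without inhibitor replicate 2, inhibitor against resistant was −3.49. Inhibitor against parental cells, at 0.23 ± 0.08 (95% interval 0.05 to 0.41), was not called (adjusted p = 0.0816). Of 8 fibroblast markers, LUM and FAP were also highest in resistant cells. COL1A1 was highest in inhibitor cells, and PDGFRA, PDGFRB, DCN, COL3A1 and DPT had means within background in all groups. The part of these markers in the ACKR3 result was not tested.

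**Figure D3:**
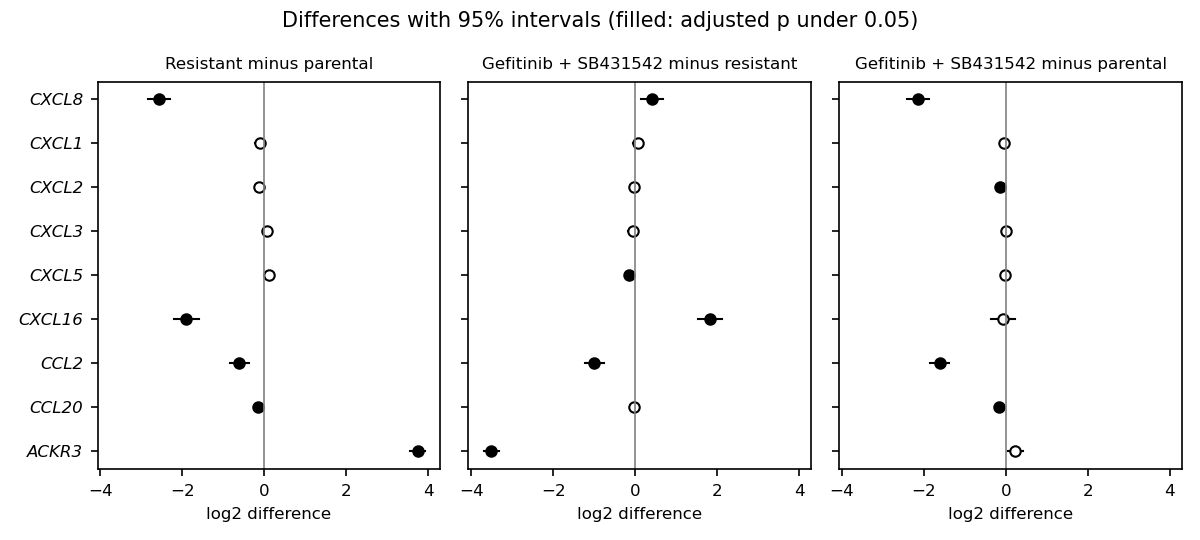
Log2 differences of the 9 genes in 3 comparisons with 95% intervals; filled points had an adjusted p under 0.05. ACKR3 lies at 3.74 in resistant minus parental and −3.51 in inhibitor minus resistant, CXCL16 at −1.90 and 1.83, and CCL2 is below 0 in all 3 comparisons.

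CXCL12, the ligand ACKR3 shares with CXCR4, was raised in the same group. It had 86.1, 85.1 and 88.4 in inhibitor arrays, 185, 188 and 198 in resistant arrays, and 91.9, 89.2 and 86.3 in parental arrays, so that only resistant arrays were above background by a clear margin. Resistant against parental was 1.09 ± 0.05 (adjusted p = 7.58e-12) and inhibitor against resistant −1.14 ± 0.05 (adjusted p = 9.72e-12). CXCL11, the other ligand, lay at background with 88.7 to 92.1 in inhibitor, 87.2 to 92.6 in resistant and 87.4 to 92.9 in parental arrays. CXCR4, the signalling receptor of CXCL12, averaged 90.9 in inhibitor, 100.2 in resistant and 90.1 in parental cells and was not called (resistant against parental adjusted p = 0.0551, with 0.024 to 0.289 over the alternatives).

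**Figure D4:**
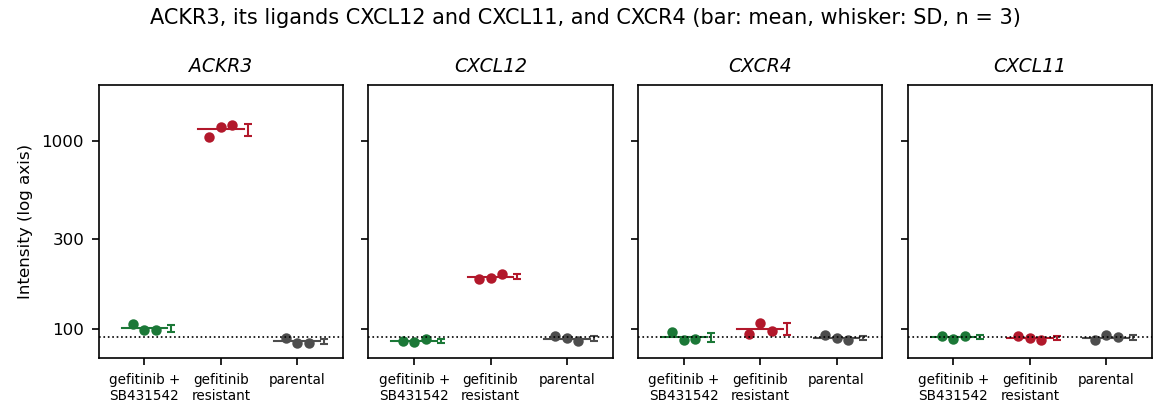
Intensity (log axis) of ACKR3, its ligands CXCL12 and CXCL11, and CXCR4 on each array, with group means and SD (n = 3) and the background level as a dotted line. ACKR3 reaches 1057 to 1213 and CXCL12 185 to 198 in resistant arrays, while CXCL11 stays at background.

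Of 13 genes listed as ACKR3 partners (ligands, kinases, arrestins and further binding partners), 3 rose, 2 fell and 8 did not pass in resistant against parental cells, where the median was −0.01. In inhibitor against resistant cells 2 rose and 3 fell, and in inhibitor against parental cells 0 of 13 were called by limma, with 3 higher and 0 lower at an unadjusted p under 0.05. The medians of these 2 comparisons were 0.0115 and −0.0059. Over all genes, 20.5%, 17.5% and 14.9% were called in the 3 comparisons in this order. GRK2 (row ADRBK1), a receptor kinase, was 2076 ± 146 in inhibitor, 1179 ± 68.0 in resistant and 1678 ± 263 in parental cells, lower in resistant than parental cells by −0.50 ± 0.12 (adjusted p = 0.00358) and higher in inhibitor than resistant cells by 0.82 (adjusted p = 3.58e-05). The kinase gene GRK5 was 0.36 higher in resistant than parental cells (adjusted p = 0.0125), which did not pass when parental replicate 1 (0.0583) or resistant replicate 1 (0.0739) was left out. ARRB1, which encodes β-arrestin 1, was lower in resistant than parental cells (123 ± 2.94 against 160 ± 6.66, −0.38, adjusted p = 0.000203). ADM, encoding adrenomedullin, which ACKR3 can bind, rose by 0.51 in resistant cells (2772 ± 152 against 1946 ± 34.0, adjusted p = 0.000382).

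The receptors of the ligands were mostly at or near background. CXCR1, CXCR2, CXCR6 and CCR2 had means no higher than 96.8 in any group and were not called. CCR6, the receptor of CCL20, was listed at 5980 to 6366 in inhibitor, 6440 to 6679 in resistant and 5449 to 6435 in parental arrays, and was not called; 99% of all values lie below 5549, so differences at this level may be compressed. Of 20 matched chemokine receptors, 0 rose, 1 fell and 19 did not pass in resistant against parental cells (2 higher and 2 lower at an unadjusted limma p under 0.05), 1 rose in inhibitor against resistant cells, and 2 fell in inhibitor against parental cells. The receptors' median differences were 0.0116, 0.0012 and 0.0152 in the same order, and the shares of all genes called were 20.5%, 17.5% and 14.9%. CCRL2, a chemerin-binding atypical receptor, was the 1 called in the first and second of these and averaged 138 ± 2.93 in inhibitor, 107 ± 7.29 in resistant and 171 ± 2.01 in parental cells. It was lower in resistant than parental cells by −0.68 ± 0.06 (adjusted p = 1.11e-07) and higher in inhibitor than resistant cells by 0.38 (adjusted p = 0.00024). CCR4, called lower in inhibitor than parental cells (adjusted p = 0.0061), averaged 80.2 ± 2.53 in inhibitor and 90.5 ± 3.72 in parental cells, near or below the background level.

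Among 36 other chemokine ligands, 13 had a mean above the background level in at least 1 group. Some of these passed it only just, with highest group means of 90.8 for CXCL11, 91.5 for CCL15, 91.6 for CCL19 and 91.9 for CCL21. Of the 36 ligands, 4 rose, 2 fell and 30 did not pass in resistant against parental cells. In inhibitor against resistant cells 3 rose and 4 fell, and in inhibitor against parental cells 2 rose and 2 fell. Their median differences were −0.0076, 0.0145 and 0.0113 in these 3 comparisons, where 20.5%, 17.5% and 14.9% of all genes were called. CX3CL1, the membrane-bound fractalkine, had 431, 243 and 486 in inhibitor arrays, 134, 112 and 114 in resistant arrays, and 1095, 1553 and 1446 in parental arrays. Its 3 groups did not overlap, and it fell by 3.49 in resistant cells (adjusted p = 4.74e-11) and was 1.63 ± 0.19 higher in inhibitor than resistant cells (adjusted p = 3.23e-06), with 1.93 when inhibitor replicate 2 was left out. CXCL17, a mucosal chemokine, averaged 95.7 ± 1.08 in inhibitor, 91.7 ± 5.69 in resistant and 431 ± 39.6 in parental cells. It was lower than parental by −2.23 in resistant (adjusted p = 5.73e-14) and by −2.17 in inhibitor cells (adjusted p = 2.87e-13), and the difference between those was not called. CCL26, an eosinophil attractant, was 98.9 ± 5.56 in inhibitor, 135 ± 4.56 in resistant and 92.0 ± 1.35 in parental cells (resistant against parental 0.56, adjusted p = 1.41e-07). CCL5, a T cell attractant, rose by 0.25 in resistant cells (155 ± 7.23 against 130 ± 6.14, adjusted p = 0.0101), which did not pass without parental replicate 3 (0.065) or resistant replicate 1 (0.0539). CXCL14, picked out after its values were seen because it completes the 4 that rose with CXCL12, CCL26 and CCL5, was 106 ± 3.11 in resistant and 89.9 ± 2.87 in parental cells (0.24, adjusted p = 0.000572). CCL28, an epithelial chemokine of mucosal surfaces, was 0.46 higher in inhibitor than resistant cells (172 ± 6.5 against 125 ± 10.1, adjusted p = 8.32e-05). The CXCL8 neighbour CXCL6 was 109 ± 4.95 in inhibitor, 92.6 ± 2.15 in resistant and 94.8 ± 3.41 in parental cells. CXCL6 was higher in inhibitor than resistant cells (adjusted p = 0.00127).

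**Figure D5:**
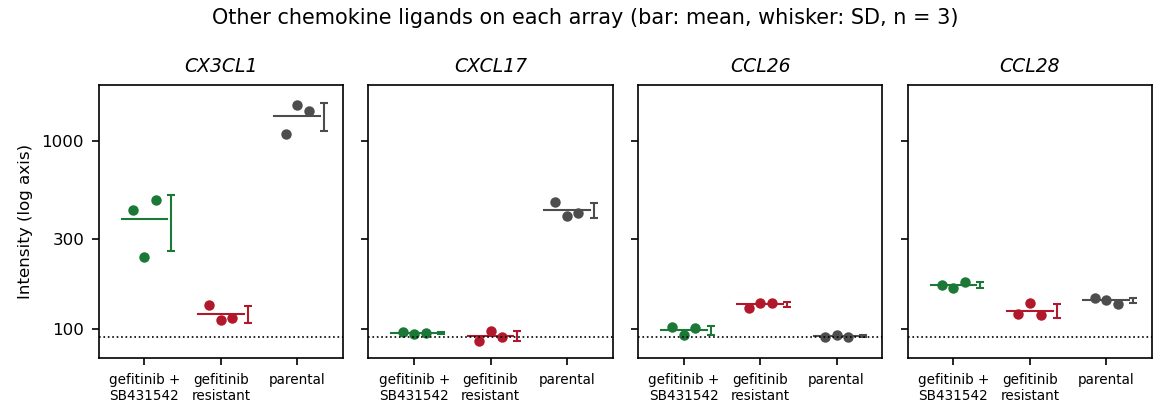
Intensity (log axis) of CX3CL1, CXCL17, CCL26 and CCL28 on each array, with means and SD (n = 3) and the background level as a dotted line. CX3CL1 is highest in parental arrays and lowest in resistant arrays, and CXCL17 is near background in both treated groups.

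NF-κB, interleukin-1 and TNF are known inducers of many chemokine genes. Of 30 genes of the NF-κB pathway and its targets, 7 rose, 5 fell and 18 did not pass in resistant against parental cells, with a median of 0.07. In inhibitor against resistant cells 8 rose and 7 fell, and in inhibitor against parental cells 9 rose and 5 fell. The medians there were −0.0087 and 0.0704. For all genes, the shares called were 20.5%, 17.5% and 14.9% in the same order of comparisons. Called genes of the list moved in both directions. LCN2, encoding lipocalin-2, was 680 ± 39.6 in inhibitor, 127 ± 6.93 in resistant and 669 ± 108 in parental cells, with −2.38 ± 0.12 for resistant against parental (adjusted p = 1e-11). SOD2, encoding the mitochondrial superoxide dismutase, was 496 ± 6.51 in inhibitor, 1502 ± 158 in resistant and 534 ± 60.8 in parental cells, with 1.49 ± 0.12 for resistant against parental (adjusted p = 1.38e-08). IL6, a cytokine, was 135 ± 11.9 in inhibitor, 178 ± 5.80 in resistant and 104 ± 1.71 in parental cells, and was higher in resistant than parental cells by 0.77 ± 0.07 (adjusted p = 4.92e-08). NFKBIA, the IκBα inhibitor gene, was lower in inhibitor than in resistant cells (839 ± 191 against 1277 ± 33.7, −0.63, adjusted p = 0.00264), and by −0.43 without inhibitor replicate 2. IKBKG, encoding the IKK regulatory subunit NEMO, was 887 ± 208 in inhibitor and 1384 ± 98.9 in resistant cells (−0.67, adjusted p = 0.00249), or −0.46 without inhibitor replicate 2. The inhibitor gene NFKBIE differed by −0.52 between inhibitor and resistant cells (adjusted p = 0.000214). BCL3, an atypical IκB protein gene, had 356, 702 and 392 in inhibitor arrays, against 214, 205 and 233 in parental arrays. These groups did not overlap, and the difference was 1.09 ± 0.18 (adjusted p = 0.00017), or 0.79 without inhibitor replicate 2. BCL3 was also called higher in resistant than parental cells (0.57, adjusted p = 0.0239), a call lost in 6 of 18 alternatives. Inhibitor against resistant cells was not called for BCL3 (adjusted p = 0.0515). TNIP1, encoding a binding partner of A20, was higher than parental in resistant (0.65, adjusted p = 0.00056) and in inhibitor cells (0.57, adjusted p = 0.00293). TNFAIP3, the A20 gene, averaged 110 ± 2.37 in inhibitor, 104 ± 6.8 in resistant and 93.4 ± 0.58 in parental cells and was called higher in inhibitor than parental cells (0.24, adjusted p = 0.00268). CFLAR, an inhibitor of death receptor signalling, was lower in inhibitor than parental cells (−0.68, adjusted p = 0.000452).

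NFKBIZ, encoding IκBζ, fell in resistant cells (307 ± 14.7 against 562 ± 26.1 in parental, −0.87, adjusted p = 2.67e-06). Of 23 genes of the interleukin-1 and TNF axis, 4 rose, 2 fell and 17 did not pass in resistant against parental cells, 6 rose and 3 fell in inhibitor against resistant cells, and 5 rose and 1 fell in inhibitor against parental cells. Their medians in these 3 comparisons were 0.0379, −0.0057 and 0.0869, beside 20.5%, 17.5% and 14.9% of all genes called. IRAK1, a kinase of the interleukin-1 receptor path, was 2455 ± 290 in resistant and 1209 ± 137 in parental cells (1.02, adjusted p = 1.71e-05). The TNF receptor gene TNFRSF1A was 612 ± 25.4 in resistant and 403 ± 47.1 in parental cells (0.61, adjusted p = 0.00355). TNFRSF1A was also called higher in inhibitor than parental cells (0.43, adjusted p = 0.0479), but this call was lost in 10 of 18 alternatives. Its adjusted p reached 0.197 without parental replicate 1 and 0.143 without inhibitor replicate 2. LTB, encoding lymphotoxin β, was 131 ± 15.7 in inhibitor, 88.6 ± 3.51 in resistant and 86.8 ± 1.45 in parental cells, with 0.56 for inhibitor against resistant (adjusted p = 3.71e-06) and 0.59 for inhibitor against parental (adjusted p = 2.6e-06). The co-receptor gene IL1RAP was lower in resistant than parental cells (−0.52, adjusted p = 0.00496) and higher in inhibitor than resistant cells (0.61, adjusted p = 0.00176). The adaptor gene MYD88 was 0.43 and the kinase gene IRAK2 0.37 higher in inhibitor than resistant cells, and the IRAK2 call had adjusted p-values of up to 0.121 over the alternatives. TLR4 was 0.33 higher in resistant than parental cells (adjusted p = 4.07e-06). The receptor gene IL1R1 fell in resistant cells (100.4 ± 2.52 against 149 ± 7.21, −0.57, adjusted p = 1.08e-06). IL1B was near background, with 92.5 ± 3.48 in inhibitor, 92.9 ± 4.81 in resistant and 82.9 ± 2.17 in parental cells. IL1B was called higher than parental in resistant (0.16, adjusted p = 0.0115) and inhibitor cells (0.16, adjusted p = 0.0199), and leaving out parental replicate 3 ended both calls (0.069 and 0.105). Leaving out resistant replicate 1 ended the call in resistant cells (0.0765), and leaving out parental replicate 1 (0.0634) or inhibitor replicate 1 (0.0937) ended the call in inhibitor cells. IL1A and TNF stayed within background in all groups, with IL1A at 85.7 in inhibitor, 87.2 in resistant and 84.5 in parental cells, and TNF at 85.3 in inhibitor, 84.8 in resistant and 81.8 in parental cells.

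Likeness of pattern was measured with Pearson's r of log2 intensity over the 9 arrays, among 1106 genes that span at least 1 log2 unit between groups. Since the arrays fall in 3 groups of 3, r mostly follows the 3 group means and is given as a description. CXCL8 was most like CAPN13 (a calpain gene, r = 0.995), MGC102966 (0.993) and LOC653071 (0.993). CAPN13 had 110 ± 8.93 in inhibitor, 88.9 ± 0.58 in resistant and 288 ± 10.6 in parental cells. ACKR3 was most like the collagen gene COL8A1 (r = 0.999), the clathrin-adaptor gene SNAP91 (0.999) and the phosphodiesterase gene PDE1A (0.999). COL8A1 had 95.1 ± 1.91 in inhibitor, 1442 ± 56.0 in resistant and 84.9 ± 1.19 in parental cells. CXCL12 reached r = 0.995 with ACKR3 and ranked 30 of 1106.

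Markers of other cell types were checked because chemokines and ACKR3 are also made by stromal and immune cells. Of 11 leukocyte markers, 5 (CD14, CD68, LYZ, CSF1R and, only slightly, FCGR3A) lay above background in at least 1 group, while PTPRC, the common leukocyte antigen, and CD3E, MS4A1, ITGAM, S100A12 and TYROBP did not. Their sum was 2051 to 2526 in inhibitor, 2464 to 2573 in resistant and 2318 to 2438 in parental arrays. In resistant against parental cells 2 of the 11 rose, 1 fell and 8 did not pass, where 20.5% of all genes were called. CD68, a lysosomal protein of macrophages, was 1489 ± 71.3 in resistant and 1034 ± 39.2 in parental cells (0.52, adjusted p = 0.00964). Inhibitor cells had 1142 ± 297, called lower than resistant cells (−0.41, adjusted p = 0.049) with overlapping arrays. The receptor gene CSF1R was 143 ± 8.61 in resistant and 103 ± 2.23 in parental cells (0.48, adjusted p = 2.66e-05). CSF1R was highest in inhibitor cells, at 198 ± 12.3 (0.95 above parental, adjusted p = 5.78e-09). CD14 fell in resistant cells, with 178 ± 14.2 against 536 ± 46.1 in parental cells (−1.59, adjusted p = 6.84e-10). Of 8 fibroblast markers, 3 were above background, and their sum was 711 to 732 in inhibitor, 866 to 877 in resistant and 692 to 695 in parental arrays. LUM (222 ± 3.35 in resistant, 85.3 ± 0.71 in parental cells, adjusted p = 4.19e-13) and FAP (111 ± 2.98 against 80.1 ± 1.97, adjusted p = 8.34e-08) moved with ACKR3 and CXCL12, while PDGFRA, PDGFRB, DCN, COL3A1 and DPT had means within background in all groups. COL1A1, the other marker above background, averaged 111 ± 2.45 in inhibitor, 107 ± 2.49 in resistant and 99.5 ± 2.58 in parental cells and was not highest in resistant cells. COL1A1 was called higher in inhibitor than parental cells (adjusted p = 0.0267), and DPT in inhibitor than resistant cells (adjusted p = 0.0395). Of 8 endothelial markers, 5 were above background, with sums of 712 to 724 in inhibitor, 680 to 688 in resistant and 699 to 708 in parental arrays. In resistant against parental cells 0 of these 8 rose and 2 fell, and in inhibitor against resistant cells 2 rose and 0 fell. Against parental cells, 3 rose and 1 fell in inhibitor cells. All-gene shares called were 20.5%, 17.5% and 14.9% in this order. The part of these markers in the chemokine results was not tested.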

How the data were processed

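Per the labels' protocols, total RNA was extracted with Trizol, cleaned with DNase I, and labelled as biotinylated cRNA for Illumina arrays. The authors deposited 1 linear intensity per gene symbol and array. The deposited intensities were already quantile-normalized (sorted arrays differed by at most 0.0178 on the log2 scale), and background was not subtracted; the software is not given in the sources used here.

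The table has 34687 rows, and 3270 with a UniGene name alone were not used. Symbols were updated with RefSeq, the brightest row of a gene was kept, and 30672 genes remained. Log2 values were fitted in limma 3.58.1 (R 4.3.3) with a mean per group over 9 arrays, an intensity trend and Benjamini-Hochberg adjustment. The number of arrays limits the precision. The fit was tested on simulated data. The alternatives were another normalization, filters, row choices, priors, a replicate block, background subtraction and leaving out each array. Replicate numbers showed no pairing in the values (deviations of same-numbered arrays correlated at −0.198 to 0.0292, those of other pairs between groups at −0.172 to 0.228). Whether same-numbered arrays were handled together is not stated. The genes and lists were chosen with earlier results of these data known. All 9 genes are named. The rule for other genes takes up to 5 called genes of largest change per list and comparison and a set of receptors, ligands and inducers whatever their result; not every comparison of each is printed. Promoters were matched for 6 genes. A leukocyte marker of the planned list is not reported here, and the sums and counts leave it out. Figures were drawn with matplotlib 3.10.9.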

Additional observations from a re-analysis of the deposited data

How the results depend on the processing

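For CXCL8, CXCL16, CCL2 and ACKR3, 207 of 215 values kept direction and call under up to 18 alternatives per comparison, 5 lost the call, 2 gained it and 1 changed sign; for the other 5 genes, 232 of 255 kept both. CXCL8 in inhibitor against resistant cells had adjusted p-values of 0.000912 to 0.204. With no intensity trend its call was lost (0.0615), as were those of CXCL2 in inhibitor against parental (0.0892) and CCL20 in resistant against parental cells (0.0536). Of the 9 genes, resistant against parental had 2 higher with dim genes left out. Inhibitor against resistant had 1 higher with no intensity trend; leaving out single arrays gave 3 to 5 called and 1 to 2 higher. Inhibitor against parental had 1 higher with no intensity trend and 1 with only the 2 groups fitted, ACKR3 in both (adjusted p = 0.0252 and 0.00287). It had 2 called, both lower, with background subtracted, where CXCL1, CXCL2, CXCL3, CXCL5 and CCL20 gave no value, nor did ACKR3 in that comparison; leaving out single arrays gave 2 to 4 called, all lower. CCL20 in inhibitor against resistant reached 0.0120 without inhibitor replicate 3 (−0.0563 to 0.0120), CXCL3 in inhibitor against parental −0.0308 to 0.0225, and CXCL16 in inhibitor against parental −0.20 to 0.12, the last without inhibitor replicate 2; none of these was called. The cause of these changes was not tested. With the replicate block, 5, 5 and 4 of the 9 genes were called in the 3 comparisons, and no call of the 9 changed. Over the alternatives, 5207 to 7671, 4086 to 5889 and 3608 to 5060 of all genes were called in the same order. The main fit called 20.5%, 17.5% and 14.9% of all genes. Levels near 90.3 limit what can be read for the 5 dim genes.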
